A study of Mus musculus with 23 samples.

Results

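The acyl-CoA thioesterases of the Acot family were examined in the circumvallate papilla, the taste papilla at the back of the tongue, of male C57Bl6/j mice. The members are Acot1, Acot2, Acot3, Acot4, Acot5, Acot6, Acot7, Acot8, Acot9 and Acot13. They were taken as every array probe whose gene name in the scanner output is one of these 10, which gave 14 probes of the 55681 on the array besides controls and 10 of its 35019 genes. The family was picked because some of its members differed between energy-restricted and unrestricted obese mice, so the values of that comparison are a description: calls at the threshold are counted there without p-values, and nothing rests on them.

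The study has 3 groups. DIO-R (n = 8), a name the labels leave unexplained, is taken to be the mice on the obesogenic diet held to 60% of the energy eaten freely. DIO (n = 8) had free access to that diet, which is high in fat and in saturated fatty acids, and Lean (n = 7) had free access to a standard chow with 3% fat by weight. All samples came from males of one strain, with the epithelium freed by enzymes before the papilla was dissected, and 25 ng of total RNA went into each 1-colour Agilent array. The labels do not say that samples are separate animals, nor give ages, the length of the diets or the hour of dissection, so p-values measure the spread between these samples. All 11 taste cell markers and all 7 markers of stratified epithelium in the lists used here were well above background on all 23 arrays. So were all 15 skeletal muscle markers and 7 of the 10 adipocyte markers, with the other 3 on 14 to 20 arrays, so the tissue held more than epithelium.

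Acyl-CoA thioesterases cut the bond that joins a fatty acid to coenzyme A, which gives back the free fatty acid and free coenzyme A. Acot1 works in the cytosol, Acot2 in the mitochondrial matrix and Acot3, Acot4, Acot5 and Acot6 in the peroxisome. These 6 genes are close copies that lie side by side in the mouse genome. In mouse liver, several of them are known targets of the fatty acid receptor PPARalpha and respond to fasting. Acot7, Acot8, Acot9 and Acot13 are encoded elsewhere.

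The array positions are those of the scanner annotation, on mouse build mm9. Of the 14 probes, 9 lie in a stretch of 117.9 kb of chromosome 12, between positions 85334071 and 85452010, in the order Acot2, Acot1, Acot4, Acot3, Acot5 and Acot6. All 9 are on the plus strand. Because the copies resemble each other, the probes that carry the differences are printed here, together with the second Acot5 probe. The longest run of bases that any member probe shared with another probe on the array, read in the same direction, was 13 to 21 bases of 60. Cross-hybridisation to transcripts of the copies was not tested, since transcript sequences and exon or untranslated-region boundaries of this build were not used here. Sequences run 5′ to 3′. Except for probe 1 of Acot5, which is printed whole, only the last 30 bases are shown, and capitals mark the hexamer AATAAA, the common polyadenylation signal.
Acot1 probe, chr12:85358561-85358620: tgccaggAATAAAaaggaaccatgattaaa
Acot2 probe, chr12:85334071-85334130: cagttcaggttagttcatttgaacatattc
Acot5 probe 1, chr12:85416634-85416693: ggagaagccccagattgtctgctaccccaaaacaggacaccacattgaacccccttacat
Acot5 probe 2, chr12:85416893-85416951: atatatgcattgttttcttcttttAATAAA
The hexamer is in 4 of the 14 member probes, those of Acot1, Acot3 probe 2, Acot5 probe 2 and Acot8 probe 2, against 5602 of the 55681 array probes. The probes of Acot5 start 259 bases apart, at positions 1182 and 1441 of the same annotated transcript, and only probe 2 reaches the hexamer.

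Levels are log2 intensities from which the array's 75th percentile was subtracted, so positive values mark the bright probes of an array. Intensities of different probes depend on the probe and are not set against each other. Tests covered the 41713 probes that rose well above background on 7 arrays or more, 13 of the 14 Acot probes among them. The exception, Acot3 probe 1, was well above background on 1 of 8 DIO-R arrays, 0 of 8 DIO arrays and 0 of 7 Lean arrays. The other 13 Acot probes were well above background on all 23 arrays. Differences were fitted with limma across all probes kept, and a probe passed at a Benjamini-Hochberg adjusted p under 0.05.

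The cytosolic enzyme Acot1 was lower in every DIO-R sample than in any other sample. Its level in DIO-R papillae had a lowest value of 3.20, a median of 3.43 and a highest value of 3.88 (mean 3.46 ± 0.26, SD, n = 8). In DIO papillae it was 4.13, 4.77 and 5.10 (mean 4.70 ± 0.30, n = 8), and in Lean papillae 4.59, 4.85 and 5.27 (mean 4.86 ± 0.23, n = 7). The DIO-R values therefore overlapped with neither of the other groups, while DIO and Lean overlapped over most of their range. DIO-R minus DIO was −1.24 ± 0.13 on the log2 scale (SE), a level lower by 2.37-fold. Against Lean, Acot1 fell in DIO-R by 2.64-fold (log2 difference −1.40 ± 0.14, limma adjusted p = 8.97e-06, lower than the Lean mean in 8 of 8 samples). DIO minus Lean was −0.16 ± 0.14 (adjusted p = 0.829), with an interval of −0.44 to 0.13.

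The mitochondrial enzyme Acot2, whose gene lies next to Acot1, was also lowest in DIO-R, with DIO and Lean close to each other. The Acot2 level was −2.75 at its lowest, −2.41 at its median and −1.82 at its highest in DIO-R, against −1.95, −1.36 and −1.14 in DIO and −1.70, −1.45 and −0.26 in Lean. DIO-R and Lean did not overlap, while the highest DIO-R sample, replicate 7, lay above the lowest DIO sample, replicate 2. The Lean value of −0.26 came from replicate 7 alone, and the next Lean sample was at −1.39. DIO-R minus DIO was −0.88 ± 0.19. Against Lean, Acot2 fell by 2.00-fold in DIO-R (log2 difference −0.997 ± 0.194, adjusted p = 0.0449). That call was close to the threshold: leaving out 1 of the 23 samples kept it in 6 fits, those without DIO-R 2, DIO-R 7, DIO 2, DIO 6, Lean 3 or Lean 7, and lost it in the other 17, with an adjusted p up to 0.122. Without Lean 7 the difference was −0.82, with an adjusted p of 0.0363.

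Acot5, a peroxisomal enzyme for medium-chain substrates in mice, was read by probes that disagreed. Probe 1 stood at −2.64, −2.18 and −1.94 (lowest, median, highest) in DIO-R papillae, at −1.58, −1.05 and −0.18 in DIO papillae and at −0.998, −0.669 and −0.062 in Lean papillae. All 8 DIO-R samples were below all samples of the other groups. DIO-R minus DIO was −1.28 ± 0.17, a level lower by 2.42-fold. Against Lean the level fell by 3.03-fold in DIO-R (log2 difference −1.60 ± 0.17, adjusted p = 4.2e-05). DIO minus Lean was −0.32 ± 0.17 (adjusted p = 0.655), with 7 of 8 DIO samples under the Lean mean.

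Probe 2 of Acot5 showed no such gap. It stood at −3.00, −2.05 and −1.43 in DIO-R, at −2.85, −2.30 and −1.48 in DIO and at −2.62, −1.99 and −1.55 in Lean. The 3 ranges lay on top of each other. DIO-R minus DIO was 0.09 ± 0.25 (interval −0.42 to 0.60), DIO-R minus Lean −0.16 ± 0.25 (adjusted p = 0.88) and DIO minus Lean −0.25 ± 0.25 (adjusted p = 0.866). In both DIO-R comparisons the interval of probe 2 lay above the value of probe 1.

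**Figure D1:**
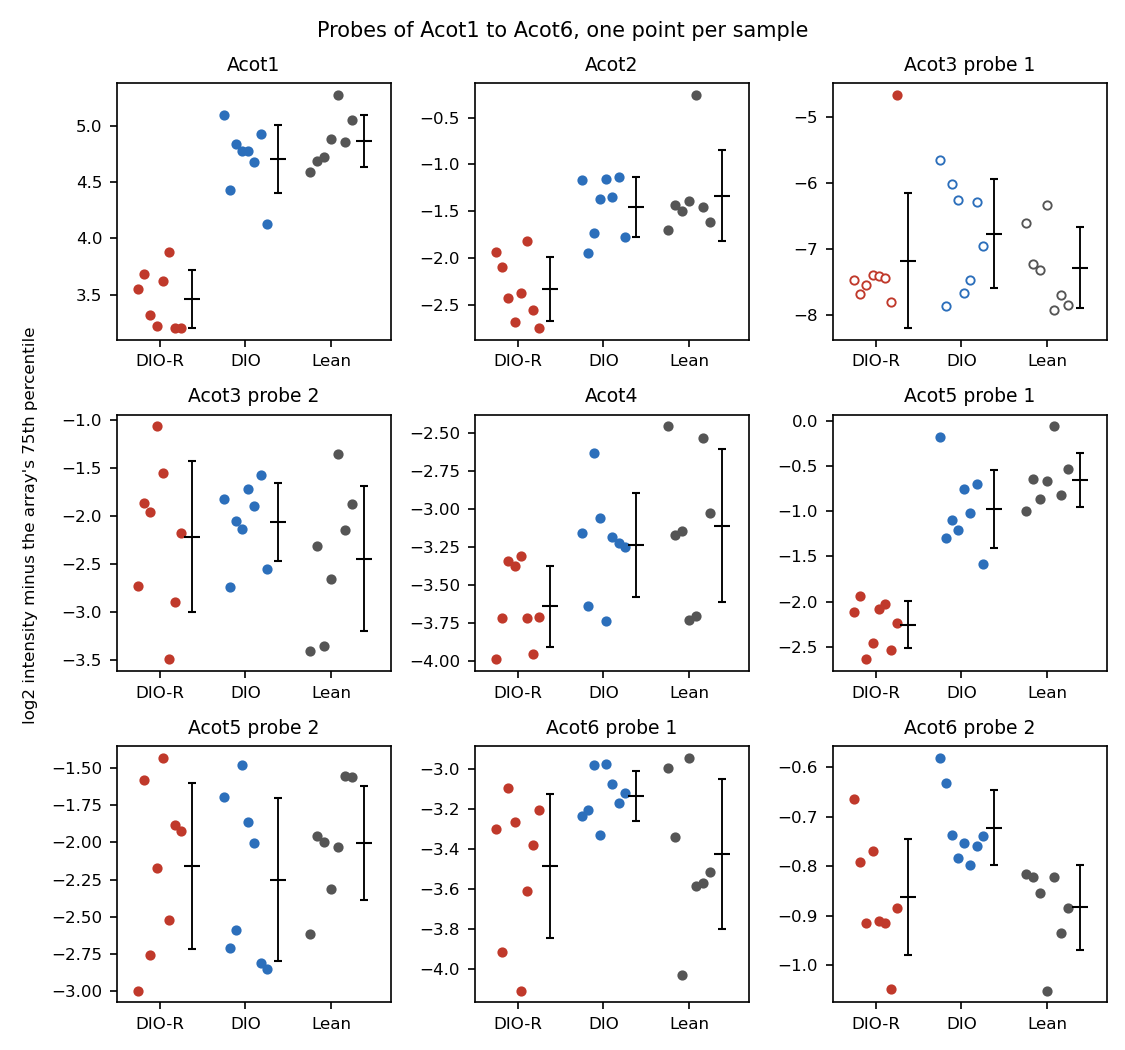
Levels of the 9 probes of Acot1 to Acot6 (vertical axis, log2 intensity minus the array's 75th percentile) in DIO-R, DIO and Lean papillae. Each point is a sample, open points are not well above background, and the bar gives the mean ± SD. The DIO-R points of Acot1 and of Acot5 probe 1 lie below all other points of the panel.

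The disagreement, known when the family was picked, was measured within arrays, where the scaling of an array cancels. The level of probe 1 minus that of probe 2 was −0.10 ± 0.55 in DIO-R (SD, n = 8), 1.27 ± 0.53 in DIO (n = 8) and 1.35 ± 0.42 in Lean (n = 7). The size of such a difference depends on both probes' chemistry, so only its change between groups can be read. It ranged from −0.65 to 0.88 in DIO-R, from 0.27 to 2.11 in DIO and from 0.74 to 1.97 in Lean, and DIO-R overlapped with both. The change was −1.44 for DIO-R minus Lean, given as a description. For DIO minus Lean it was −0.08 (two-sided exact permutation test over 6435 arrangements, p = 0.764). In DIO-R minus DIO, the comparison behind the choice of the family, it was −1.37. Averaging both probes, as a gene-level summary would, gave Acot5 a difference of −0.59 in DIO-R minus DIO and −0.88 in DIO-R minus Lean (adjusted p = 0.0462).

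**Figure D2:**
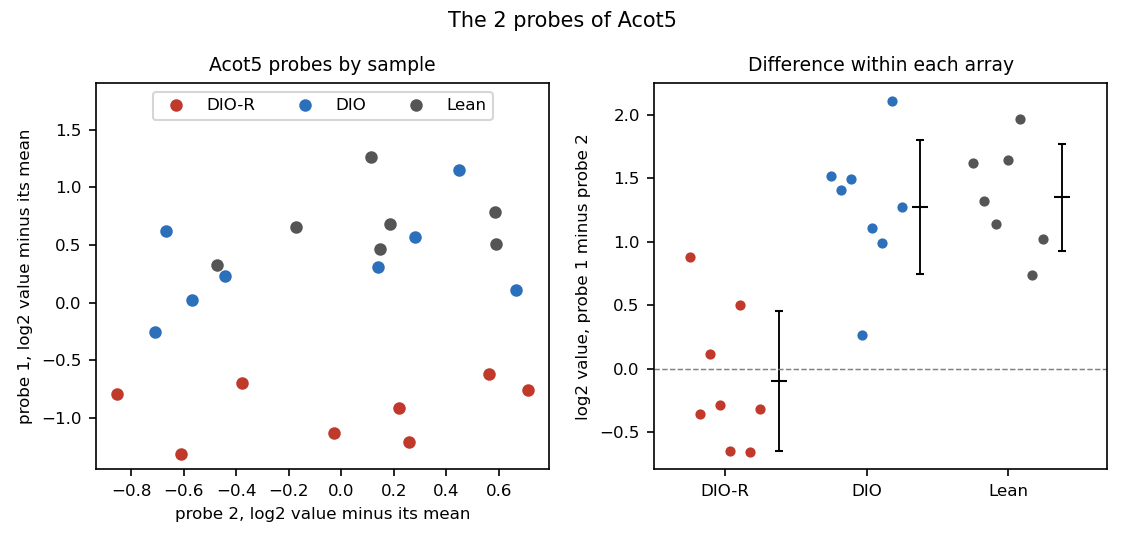
Left, the level of Acot5 probe 1 against that of probe 2, each minus its own mean over the 23 arrays. Right, probe 1 minus probe 2 within each array by group (points, samples; bar, mean ± SD), with means of −0.10 in DIO-R, 1.27 in DIO and 1.35 in Lean. On the left the DIO-R points are low on the vertical axis and spread along the horizontal axis like the others.

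Of the other peroxisomal enzymes in the cluster, none passed the test in any comparison. Acot4, which acts on succinyl-CoA and other dicarboxylic acyl-CoAs in mice, stood at −3.99, −3.72 and −3.31 in DIO-R, at −3.74, −3.20 and −2.63 in DIO and at −3.73, −3.15 and −2.46 in Lean. Its group ranges overlapped. Acot4 differed by −0.41 ± 0.18 in DIO-R minus DIO and by −0.53 ± 0.19 in DIO-R minus Lean (adjusted p = 0.422), with all 8 DIO-R samples under both other means. In DIO minus Lean it differed by −0.13 ± 0.19 (adjusted p = 0.911).

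Acot3, a peroxisomal enzyme for long-chain substrates, was measured by probe 2 alone. Its level was −3.49, −2.07 and −1.07 in DIO-R, −2.73, −1.98 and −1.57 in DIO and −3.40, −2.32 and −1.36 in Lean, a wide spread within each group. The differences were −0.16 ± 0.32 in DIO-R minus DIO, 0.23 ± 0.33 in DIO-R minus Lean (adjusted p = 0.863) and 0.38 ± 0.33 in DIO minus Lean (adjusted p = 0.829). Acot3 probe 1 was well above background in only 1 sample, DIO-R 10, where it was at −4.67, and no fold is given for it.

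Acot6, which acts on branched-chain acyl-CoAs in mice, had its highest median in DIO with both probes, as Acot3 probe 2, Acot7 and Acot13 did. Acot6 probe 2 stood at −1.05, −0.90 and −0.66 in DIO-R, at −0.80, −0.75 and −0.58 in DIO and at −1.05, −0.85 and −0.82 in Lean. All 8 DIO samples were above all 7 Lean samples, yet the difference was small, 0.16 ± 0.06 (0.14, 0.23 and 0.14 within slides 1 to 3), and did not pass (adjusted p = 0.478). It was the only Acot probe without overlap in DIO minus Lean, where 0.105% of all probes tested had none. Acot6 probe 1 differed by 0.29 ± 0.16 in DIO minus Lean (adjusted p = 0.657). In DIO-R minus DIO, probe 1 differed by −0.35 ± 0.15 and probe 2 by −0.14 ± 0.06. In DIO-R minus Lean both were near 0, at −0.06 ± 0.16 (probe 1, adjusted p = 0.931) and 0.02 ± 0.06 (probe 2, adjusted p = 0.936).

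The members outside the cluster did not pass in any comparison, nor reach an unadjusted p under 0.05 (0 of 5 in each). Acot7, a cytosolic enzyme abundant in brain, has its probe on chromosome 4 and had medians of 1.81 in DIO-R, 2.00 in DIO and 1.92 in Lean. The Acot8 probes, for a peroxisomal enzyme of broad substrate range encoded on chromosome 2, had medians of 1.37, 1.26 and 1.24 (probe 1) and of 2.24, 2.04 and 2.04 (probe 2) in DIO-R, DIO and Lean. Unlike the Acot5 probes, those of Acot8 moved together between samples: after each group's mean was taken off, they correlated at 0.94 over the 23 arrays, against 0.34 for the Acot5 probes and −0.12 for those of Acot6. These correlations describe samples that share array and labelling.

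Acot9, a mitochondrial enzyme encoded on the X chromosome, had medians of 1.44 in DIO-R, 1.37 in DIO and 1.42 in Lean. Acot13, a small thioesterase associated with mitochondria and encoded on chromosome 13, had medians of 4.17, 4.24 and 4.22 in the same groups. Over these 5 probes the differences ranged from −0.14 to 0.16 in DIO-R minus DIO, from −0.09 to 0.12 in DIO-R minus Lean and from −0.07 to 0.08 in DIO minus Lean. Their 95% intervals in DIO-R minus Lean reached at most 0.38 from 0, so a change of the size of that of Acot1 lay outside them.

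**Figure D3:**
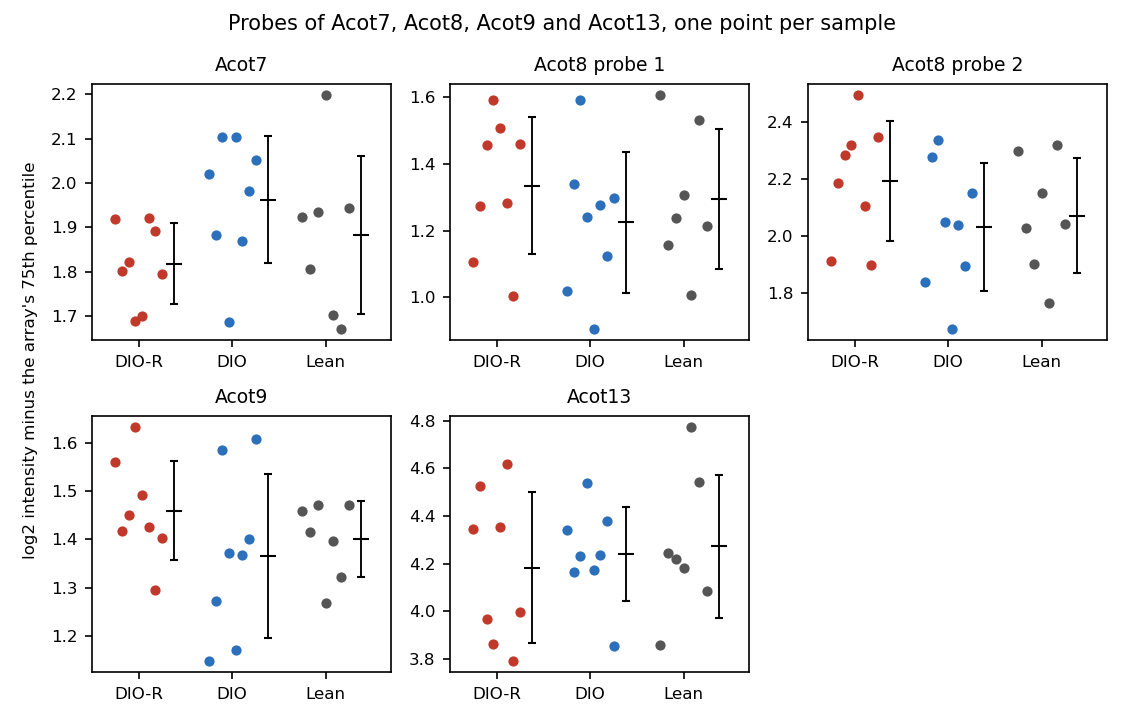
Levels of the 5 probes of Acot7, Acot8, Acot9 and Acot13 (vertical axis, log2 intensity minus the array's 75th percentile) in DIO-R, DIO and Lean papillae, with the mean ± SD beside each group. The groups overlap in every panel.

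Counted over the family, 2 of the 13 probes tested were called lower in DIO-R minus DIO, where 0.0288% of all probes were lower at that threshold, and the same 2, Acot1 and Acot5 probe 1, had no overlap between the groups, against 0.036% of all probes in that direction. As the family was chosen on that comparison, nothing is read from these counts. Of the 8 cluster probes tested, 7 were lower in DIO-R than in DIO, with a median of −0.38, and of the 5 other probes 2 were lower, with a median of 0.09. The median of all probes was 0.01. In DIO-R minus Lean, 3 of 13 passed, all of them lower in DIO-R (Acot1, Acot2 and Acot5 probe 1), against 0.0551% of all probes. The same 3 probes had no overlap between the groups, which held in the lower direction for 0.0935% of all probes. The DIO-R minus Lean comparison shares the DIO-R samples with the one that chose the family and is no independent evidence of direction. In DIO minus Lean, 0 of 13 passed with limma (1 at an unadjusted p under 0.05, Acot6 probe 2), against 0.0024% of all probes, which is 1 probe.

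**Figure D4:**
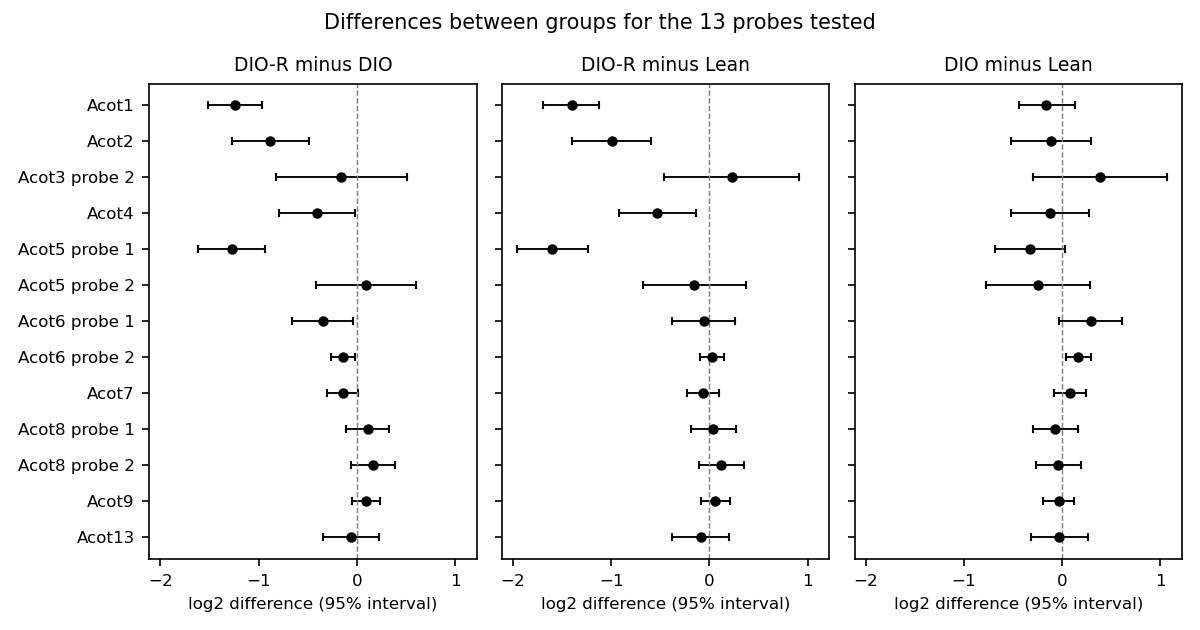
Log2 differences (horizontal axis) with 95% intervals for the 13 Acot probes tested in DIO-R minus DIO, DIO-R minus Lean and DIO minus Lean. Acot1, Acot2 and Acot5 probe 1 lie left of 0 in both comparisons of DIO-R, and the points of DIO minus Lean run between −0.32 and 0.38.

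The arrays lie on 3 slides of 8, 8 and 7 arrays, each slide holding all groups. No Acot probe was called different between slides, where 0.666% of all probes tested were. Not being called does not exclude a shift. Acot5 probe 2 ran from −2.03 to −1.43 on slide 1, from −2.85 to −1.56 on slide 2 and from −3.00 to −1.88 on slide 3. Within slides, DIO-R minus DIO was −1.20, −1.33 and −1.13 for Acot1, −1.21, −1.30 and −1.22 for Acot5 probe 1 and −0.95, −1.07 and −0.56 for Acot2. The corresponding values of DIO-R minus Lean were −1.28, −1.72 and −1.11 for Acot1, −1.50, −1.84 and −1.30 for Acot5 probe 1 and −1.19, −1.12 and −0.51 for Acot2. All 3 probes were thus lower in DIO-R within each slide. With slide as a block, Acot1 and Acot5 probe 1 still passed in DIO-R minus Lean (adjusted p = 2.51e-05 and 8.61e-05), and Acot2 did not (−0.95, adjusted p = 0.0621).

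Markers of skeletal muscle, adipocytes, gland and macrophages were also lower on average in DIO-R than in both other groups. The lists for erythrocytes, fibroblasts, stratified epithelium and taste cells had other patterns. The mean log2 level of the 15 skeletal muscle markers, each centred on its own mean, was −0.39 in DIO-R (range −2.09 to 0.65), 0.24 in DIO (−0.62 to 0.94) and 0.17 in Lean (−1.15 to 1.11). That of the 10 adipocyte markers was −0.70 in DIO-R (−2.03 to 0.74), 0.37 in DIO (−1.10 to 1.62) and 0.38 in Lean (−1.15 to 1.55). The 3 of them not well above background on every array weigh on this mean. They had the largest differences in DIO-R minus DIO, −2.40 for Cidec, −1.85 for Pck1 and −1.75 for Adipoq. Cfd, well above background on all 23 arrays, was also at −1.75. All 15 muscle markers and all 10 adipocyte markers were lower in DIO-R than in DIO, none of them past the threshold in limma (3 and 5 at an unadjusted p under 0.05). The 7 erythrocyte markers kept averaged −0.35 in DIO-R (−1.34 to 0.55), 0.71 in DIO (−0.18 to 1.64) and −0.42 in Lean (−1.63 to 0.30), with all 7 lower in DIO-R than in DIO, none past the threshold and all 7 at an unadjusted p under 0.05. In the same comparison all 6 gland, 7 macrophage and 6 fibroblast markers were lower (medians −0.24, −0.38 and −0.21), and all 7 markers of stratified epithelium and 10 of 11 taste cell markers were higher (medians 0.18 and 0.28). Gland markers averaged −0.285 in DIO-R, 0.007 in DIO and 0.317 in Lean, and macrophage markers −0.15, 0.19 and −0.04. In a bulk sample, fewer cells of a type and less RNA per cell cannot be told apart.

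The same samples were extreme in both measures. DIO-R 7, DIO 1 and Lean 7 were the highest of their groups in Acot1, in the muscle markers and in the adipocyte markers. Within groups, Acot1 and the adipocyte markers correlated with Pearson's r of 0.89 in DIO-R (n = 8, two-sided exact permutation p = 0.00625), 0.93 in DIO (n = 8, exact p = 0.000843) and 0.79 in Lean (n = 7, exact p = 0.0337). Spearman's rho was 0.69 (exact p = 0.0694), 0.80 (exact p = 0.0204) and 0.68 (exact p = 0.11) in the same order. Without the 2 samples farthest from the group's median marker level, r was 0.80, 0.75 and 0.31, so the Lean value rested on those samples. These are 3 of 78 relations computed (13 probes, 2 marker lists, 3 groups), chosen for display after all were seen. None of the 78 passed after Benjamini-Hochberg adjustment (adjusted p of 0.0835, 0.0632 and 0.132 for these 3 Pearson values), and 22 had an unadjusted p under 0.05. Of the 78, 39 were positive. Acot13, which passed in no comparison of groups, had r of 0.89, 0.80 and 0.88 with the adipocyte markers in DIO-R, DIO and Lean. Such a relation was therefore not particular to the probes lower in DIO-R. No slide holds enough samples of a group to repeat these relations within slides.

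With the adipocyte marker mean as a covariate, Acot1 was lower in DIO-R by 0.97 against DIO and by 1.13 against Lean on the log2 scale (log2 difference −1.13, adjusted p = 3.84e-07 against Lean). Acot5 probe 1 differed by −0.97 in DIO-R minus DIO and −1.29 in DIO-R minus Lean (adjusted p = 2.47e-05) in that fit. Acot2 differed by −0.52 and −0.64 and no longer passed against Lean (adjusted p = 0.185). With the muscle marker mean instead, DIO-R minus Lean was −1.27 for Acot1 (adjusted p = 9.05e-07), −1.45 for Acot5 probe 1 (1.77e-05) and −0.78 for Acot2 (0.00708), all past the threshold. With the erythrocyte marker mean, DIO-R minus DIO was −1.05 for Acot1 and −1.12 for Acot5 probe 1, which no longer passed, and DIO-R minus Lean was −1.42 (adjusted p = 5.46e-06) and −1.61 (4.92e-05).

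**Figure D5:**
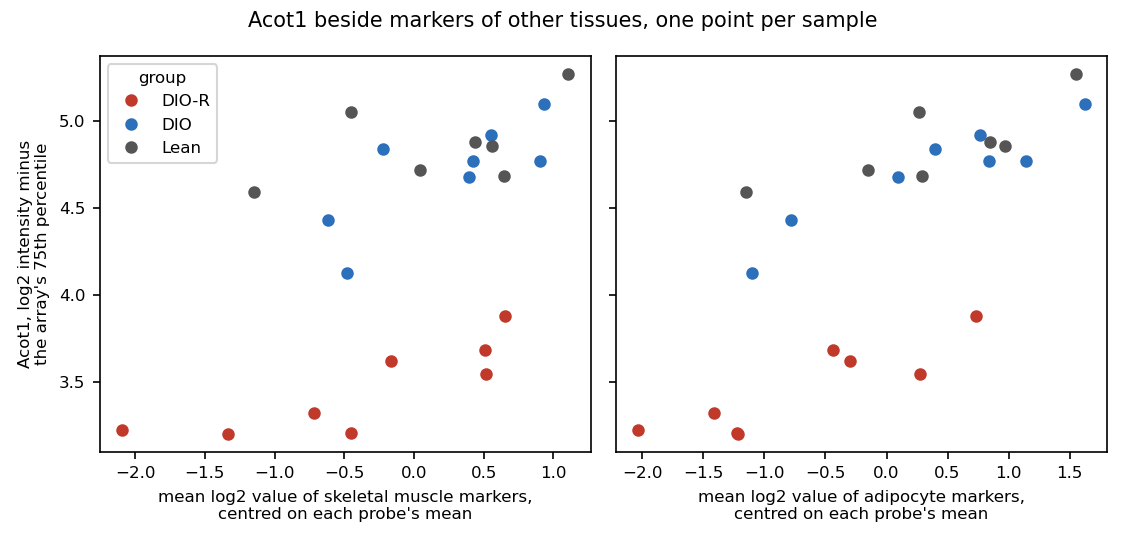
The level of Acot1 (vertical axis, log2 intensity minus the array's 75th percentile) against the mean centred log2 level of skeletal muscle markers (left) and adipocyte markers (right), 1 point per sample. Acot1 tends to be higher where the adipocyte markers are higher in DIO-R and DIO, while in Lean this rested on the samples farthest from the group's median. None of these relations passed after adjustment. All DIO-R points lie below the others on the vertical axis. The adipocyte levels reach down to −2.03 in DIO-R, −1.10 in DIO and −1.15 in Lean, and the muscle levels to −2.09, −0.62 and −1.15. Some DIO-R points therefore have no DIO or Lean point at an equal marker level.

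Neighbouring genes of fatty acid metabolism were described from lists. These lists were chosen with earlier results of these data known, so their counts beside the shares of all probes are a description and no support. Of 39 genes kept from a list of fatty acid oxidation genes and PPAR targets, 31 were lower in DIO-R than in DIO (median −0.33, all probes 0.01) and 3 were called lower, against 0.0288% of all probes. At an unadjusted p under 0.05 there were 22 of the 39, against 8.94% of all probes. Those called were Pdk4, an inhibitory kinase of pyruvate dehydrogenase (−2.77 ± 0.44), Angptl4, a secreted inhibitor of lipoprotein lipase (−1.90 ± 0.17), and Cpt1a, which passes long-chain fatty acids on for mitochondrial import (−0.49 ± 0.07). In DIO-R minus Lean, 37 of the 39 were lower (median −0.27, all probes −0.03), and 6 passed, none upward, against 0.0551% of all probes lower at that threshold (19 of 39 at an unadjusted p under 0.05, against 8.41% of all probes). The 6 were Angptl4 (−1.85 ± 0.18, adjusted p = 6.57e-06), Cpt1a (−0.54 ± 0.08, 0.0019), Eci3 (−0.58 ± 0.10, 0.0122), Pdk4 (−2.53 ± 0.45, 0.0208), Eci2 (−0.55 ± 0.11, 0.0449) and Slc25a20 (−0.56 ± 0.11, 0.0462). Eci2 and Eci3 are isomerases for the oxidation of unsaturated fatty acids, and Slc25a20 carries acylcarnitines into mitochondria.

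Other genes of that list had large differences without passing. Plin5, a lipid droplet protein of oxidative tissue, was at −1.18 ± 0.46 in DIO-R minus Lean (adjusted p = 0.471). In DIO minus Lean 0 of the 39 passed (0 also at an unadjusted p under 0.05, median −0.01), and the largest differences were those of Cyp4a14, a fatty acid hydroxylase (−0.83 ± 0.47, adjusted p = 0.678), Fabp3, the fatty acid binding protein of heart and muscle (0.53 ± 0.43, 0.812), and Creb3l3, a transcription factor of liver lipid metabolism (−0.50 ± 0.30, 0.698).

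Other enzymes of acyl-CoA release and handling had no gene past the threshold in limma. None of 9 further thioesterases kept, Acot10 and Acot11 among them, passed in any comparison (0 at an unadjusted p under 0.05 in either comparison of DIO-R, 2 in DIO minus Lean), with differences of −0.09 to 0.25 in DIO-R minus DIO and −0.10 to 0.08 in DIO-R minus Lean. Of 25 genes that make, bind or break down coenzyme A and acyl-CoA, 0 passed in any comparison (1 in DIO-R minus DIO, 4 in DIO-R minus Lean and 1 in DIO minus Lean at an unadjusted p under 0.05), and 14 were lower in DIO-R than in DIO (median −0.02). Of 13 genes of PPAR receptors and their partners, 0 passed in any comparison (2, 3 and 0 at an unadjusted p under 0.05, in the same order), and 6 were lower in DIO-R than in DIO (median 0.00).

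Genes most like the 3 called probes were sought by the mean absolute distance over the 23 arrays between log2 levels, each centred on its own mean. For Acot1, whose own mean deviation was 0.62, the closest were D430040L24Rik (0.29), Tmem82 (0.30), Vldlr (0.31) and Gm17773 (0.31), with a probe without a gene symbol as the fifth. For Acot5 probe 1, with a deviation of 0.67, they were Tmem82 (0.33), D430040L24Rik (0.35), 8430426J06Rik (0.36), Nfil3 (0.36) and Slc38a3 (0.37). For Acot2, with a deviation of 0.45, they were D430040L24Rik (0.16), Vldlr (0.17), Slc38a3 (0.19), Bnip3 (0.20) and Twf2 (0.21). D430040L24Rik was therefore among the closest 5 of all 3 probes, and its DIO-R minus DIO difference was −0.82, against −1.51 for Tmem82 and −0.62 for Vldlr. Vldlr is the very low density lipoprotein receptor, Slc38a3 a glutamine transporter and Nfil3 a transcription factor.

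The promoters of the 3 genes with a probe called lower in DIO-R minus Lean are shown, for Acot5 on the call of probe 1 alone. They are shown because PPAR receptors bind direct repeats of the half-site AGGTCA. The windows are the 250 bases before the annotated transcription start in RefSeq, build GRCm38.p6, all on the plus strand of chromosome 12. RefSeq windows were found for 8 of the 10 members. Capitals mark matches to AGGTCA, to the repeat of half-sites spaced by 1 base (DR1, with the fourth base of each half-site free) and to TATAAA, searched on both strands over 250 bases before and 50 after the start.
Acot1, chr12:84009252-84009501: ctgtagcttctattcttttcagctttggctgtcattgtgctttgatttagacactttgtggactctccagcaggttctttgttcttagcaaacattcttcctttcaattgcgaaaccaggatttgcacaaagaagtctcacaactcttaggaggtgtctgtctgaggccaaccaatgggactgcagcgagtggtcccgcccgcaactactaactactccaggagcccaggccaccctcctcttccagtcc
Acot2, chr12:83987611-83987860: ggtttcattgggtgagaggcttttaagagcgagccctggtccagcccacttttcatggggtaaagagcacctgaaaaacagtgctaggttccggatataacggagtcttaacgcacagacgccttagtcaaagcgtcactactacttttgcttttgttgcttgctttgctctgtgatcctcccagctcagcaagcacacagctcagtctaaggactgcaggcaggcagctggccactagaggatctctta
Acot5, chr12:84069074-84069323: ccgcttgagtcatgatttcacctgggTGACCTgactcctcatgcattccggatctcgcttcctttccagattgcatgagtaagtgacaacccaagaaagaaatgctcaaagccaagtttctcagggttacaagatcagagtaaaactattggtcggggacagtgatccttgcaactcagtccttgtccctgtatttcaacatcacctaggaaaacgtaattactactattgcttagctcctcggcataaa
The repeat was in none of the member windows and in 0.381% of all 32851 windows. A single AGGTCA was in the windows of Acot3, Acot4 and Acot5, against 16.3% of all windows, and in neither that of Acot1 nor that of Acot2. In Acot5 it was present both as the marked reverse complement and as a copy that crosses the start site, beyond the printed end. TATAAA was in the windows of Acot4 and Acot9, against 13.6% of all. A match is a description of letters, not a binding site, and the RefSeq record of the Acot5 gene begins inside its printed window.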

How the data were processed

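The members and gene lists were chosen with earlier results of these data known. Scanner intensity was deposited for each of 23 arrays. Per the file headers it was read with Agilent Feature Extraction 10.10.1.1, with background and spatial trend subtracted array by array and no scaling between arrays. The authors also deposited log2 values of 35829 probes, 12 Acot probes among them; their normalization is not given in the sources used here beyond the name limma in the submitters' processing notes, their array medians lie between 7.63 and 7.64, and they served as an alternative.

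Each array of 62976 spots had 3671 controls, 66.9% to 78.4% of probes well above background and no saturated spot. Log2 of the processed intensity minus the array's 75th percentile over non-control spots was taken, outlier spots left out and spots of a probe averaged. Groups followed the labelled condition. Probes well above background on at least 7 of 23 arrays entered limma 3.58.1 (R 4.3.3, the data.table package in version 1.17.8; lmFit, eBayes, two-sided, 3 groups, no covariate, Benjamini-Hochberg over 41713 probes). The number of arrays limits the precision. Single measures used exact permutation tests. Figures used Python 3.11.15 and matplotlib 3.10.9. All Acot probes are named; of the lists, genes past an adjusted p of 0.05 and the 3 with the largest difference per comparison; and the 5 genes closest to each called probe. One gene that this rule names is not reported here. Alternatives changed background correction, scaling, filter, probe summary, slide and replicate blocks, samples, weights and marker covariates.

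Replicate numbers in the titles gave no sign of pairing: correlations of deviations between same-numbered samples ran from −0.36 to 0.30. With 5 to 7 such pairs per comparison these values cannot exclude pairing, and the main fit took the samples as unpaired.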

Additional observations from a re-analysis of the deposited data

Results flagged for a closer look

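Acot2 in Lean replicate 7 stood at −0.26 on the log2 scale, far from the other 6 Lean samples, whose nearest value was −1.39; its gap to that sample was 0.783 of the whole range of the group. It was the only such sample among 39 combinations of probe and group examined, and chance alone marks about 1 in 20. Lean 7 was also the highest Lean sample in the skeletal muscle markers (1.11) and the adipocyte markers (1.55); their part in the Acot2 value was not tested.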

How the results depend on the processing

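The number of Acot probes called in DIO-R minus DIO was 1 in place of 2 with the mean of a gene's probes, with the replicate block and with the erythrocyte marker covariate. In each of these Acot1 passed and Acot5 did not (−0.59, −1.13 and −1.12). Averaging mixes in Acot5 probe 2, and the cause was not tested for the other 2. Over all 41713 probes, 17 were called in the main fit of that comparison, 2 with the replicate block and 3 with the erythrocyte covariate. With array weights the number of Acot probes called was 3, since Acot2 was called too (−0.91), and 32 of all probes were called. The replicate block also left Acot2 short of the threshold in DIO-R minus Lean (−1.03, adjusted p = 0.286) and changed no other call. Leaving out each sample in turn, the count was 0 in all fits of DIO minus Lean, 2 to 3 in DIO-R minus DIO and 2 to 3 in DIO-R minus Lean. Over all 41713 probes, these fits called 1 to 44, 12 to 22 and 25 to 68 in the same order. The difference between the Acot5 probes ranged from −0.20 to 0.07 in DIO minus Lean and from −1.58 to −1.34 in DIO-R minus Lean in those fits. Against Lean, Acot1 passed in all 17 alternatives with a test (−1.72 to −1.11, within-slide values included), and Acot5 probe 1 in 17 of 17. The alternatives of Acot5 probe 1 include the mean of a gene's probes, which there is the mean of both Acot5 probes and not probe 1 itself. In DIO-R minus DIO, Acot1 was called in 17 of them and Acot5 probe 1 in 14, with the mean of both Acot5 probes among those not called. That comparison chose the family, so these 2 counts are a description and no support. Acot2 passed against Lean in 9 of 17. No called value changed sign, while some uncalled ones did, such as Acot3 probe 2 in DIO-R minus DIO (0.37 within slide 2). The intensity over background of Acot3 probe 1 sets a limit: it was not tested.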
